A study of Mus musculus with 16 samples.

Results

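AP-1 is a dimeric transcription factor, and the genes described here encode 10 proteins of its basic leucine zipper family: Fos, Fosb, Fosl1, Fosl2, Jun, Junb, Jund, Atf3, Batf and Maff. They were found by symbol among the 45706 gene IDs of a mouse gene count table, and 10 of 10 matched a single ID each. RNA was sequenced from 16 bone marrow libraries labelled by time and genotype, in 6 groups. The libraries labelled Gata2 numbered 3 at Day0, 2 at Day2 and 3 at Week2, against 2, 3 and 3 libraries labelled WT at the same times. Day0 and Day2 libraries came from LSK cells, the lineage-negative Sca-1+ Kit+ fraction of marrow that holds stem and multipotent progenitor cells, and Week2 libraries from CD45.2 bone marrow cells. The study asked how a marrow with reduced GATA2, a zinc finger transcription factor of blood stem cells, answers when few sorted LSK cells are placed in lethally irradiated WT hosts. The labels give no age, no strain and neither the allele nor a driver line behind the word Gata2, and they do not say what the cells underwent between Day0 and Day2. They do not state that libraries of a group came from separate mice, so p-values here weigh differences against a between-library spread that may be technical.

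AP-1 forms when a Jun protein pairs with another Jun protein or with a Fos protein, and Fos proteins bind DNA only as such pairs. Fos, Fosb, Jun and Junb are immediate early genes: growth factors, cytokines and cell stress switch on their transcription within minutes through MAP kinases and serum response factor, and their mRNAs are short-lived. Atf3 is a stress-induced relative, Batf pairs with Jun proteins but carries no activation domain, and Maff is a small Maf protein that also lacks one. In blood, Jun and Fos proteins take part in monocytic differentiation, and loss of Junb in mice expands stem and myeloid progenitor cells.

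The promoters of the 4 immediate early members are shown because these genes moved together below. Each window runs from 250 bases before to 50 bases after the start that RefSeq gives on GRCm38.p6, 5′ to 3′ on the gene's strand. Capitals mark motifs searched on both strands: the TATA box TATAAA, the cAMP response element (CRE) TGACGTCA, its core TGACG, the variant TGACATCA, the AP-1 site TGANTCA and the CArG box bound by serum response factor.
Fos, chr12:85473640-85473939, plus strand: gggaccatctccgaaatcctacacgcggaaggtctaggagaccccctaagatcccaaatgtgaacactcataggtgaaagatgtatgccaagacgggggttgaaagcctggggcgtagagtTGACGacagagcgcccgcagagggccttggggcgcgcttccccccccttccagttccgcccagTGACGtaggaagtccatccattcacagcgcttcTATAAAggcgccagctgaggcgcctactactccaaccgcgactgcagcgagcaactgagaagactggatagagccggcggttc
Fosb, chr7:19309996-19310295, minus strand: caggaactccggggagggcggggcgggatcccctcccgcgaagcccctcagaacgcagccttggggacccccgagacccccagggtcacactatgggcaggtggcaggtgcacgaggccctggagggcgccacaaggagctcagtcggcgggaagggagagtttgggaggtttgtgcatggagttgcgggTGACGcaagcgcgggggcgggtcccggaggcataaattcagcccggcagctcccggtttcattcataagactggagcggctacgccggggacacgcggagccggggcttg
Jun, chr4:95052173-95052472, minus strand: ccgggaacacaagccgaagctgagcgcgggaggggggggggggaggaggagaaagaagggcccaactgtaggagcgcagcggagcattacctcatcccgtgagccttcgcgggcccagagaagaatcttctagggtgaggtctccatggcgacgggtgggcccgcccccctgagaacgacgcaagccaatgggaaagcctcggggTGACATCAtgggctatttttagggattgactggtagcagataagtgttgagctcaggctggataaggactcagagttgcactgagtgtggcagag
Junb, chr8:84978699-84978998, minus strand: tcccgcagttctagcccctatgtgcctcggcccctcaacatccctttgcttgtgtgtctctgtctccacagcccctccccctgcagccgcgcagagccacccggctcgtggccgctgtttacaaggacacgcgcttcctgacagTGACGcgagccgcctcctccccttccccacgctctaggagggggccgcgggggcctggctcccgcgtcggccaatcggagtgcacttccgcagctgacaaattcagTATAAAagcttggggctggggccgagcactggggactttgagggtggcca

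Fos carried TGACG at -129 to -125 and at -66 to -62 and TATAAA at -33 to -28, counted from the RefSeq start. Fosb carried TGACG at -60 to -56, Junb TGACG at -106 to -102 and TATAAA at 1 to 6, and Jun the variant TGACATCA at -45 to -38. The counted Junb gene is annotated to start at 84978718, downstream of that RefSeq start, so its TATAAA lies upstream of the annotated start. Of 32851 RefSeq windows of this length, 20.8% held TGACG, 13.6% TATAAA, 3.62% TGACATCA and 1.79% the whole CRE. Windows were found for 9 of the 10 members, in 11 windows, since Maff has 3 starts. None of the 11 held an AP-1 site or a CArG box, which 7.81% and 1.63% of all windows held. Sites more than 250 bases before the start were not searched, so these promoters may hold such motifs further upstream. The Jund window (chr8:70697489-70697788) lies upstream of the counted gene's annotated start at 70698949, so it may not be the promoter of that gene. One Maff window held the whole CRE and another TGACATCA, and Atf3 and Batf held TGACG, which is part of the CRE. These matches describe letters in these windows and are not shown to be bound sites. A window of Fosl1 was not used here.

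Per the mm10 annotation, Fos (chr12:85473890-85477273) lies on the same chromosome as Batf (chr12:85686669-85709087). Jun (chr4:95049034-95052222) and Jund (chr8:70698949-70700616) each consist of 1 exon block, while Fosl2 (chr5:32135801-32157842) and Atf3 (chr1:191170296-191218039) hold 4 and 5. Reads of overlapping genes on opposite strands may be shared, since the strand setting of the counting is not given in the sources used here. Fosl1 shares 1163 bases with Ccdc85b, which had 27654 counts over all libraries against 5852 for Fosl1, so Fosl1 levels are uncertain. Junb shares 173 bases with Prdx2 (358662 counts against 1920825 for Junb) and Jun 232 bases with its antisense gene Junos (10585 counts against 3546284). Jund shares 877 bases with Gm11175, which had 0 counts.

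Libraries of LSK cells held 19618830 to 68305582 counts and those of Week2 176933583 to 320717267. Levels below are CPM, counts scaled to the size of the library, with TMM scaling, set within the 10 LSK libraries and within the 6 Week2 libraries. The Day0 pair labelled WT stood apart: its log2 CPM correlated at r = 0.842, against 0.978 or more for the other replicate pairs of LSK cells. Its replicate 1 had the fewest counts of the LSK libraries (19618830) and the fewest genes with a count of the Day0 libraries (22150). The gene in the labels did not go the way of a lost copy. Gata2 had 611, 752 and 677 CPM in Day0 libraries labelled Gata2, against 446 and 329 CPM in Day0 WT. At Day2 it had 491 and 737 CPM in libraries labelled Gata2, against 291, 262 and 259 CPM in WT. It was therefore higher in every LSK library labelled Gata2, with log2 fold changes of 0.81 (SE 0.2, edgeR adjusted p = 0.341) at Day0 and 1.18 (SE 0.193, adjusted p = 0.207) at Day2. At Week2 it had 27.4, 12.4 and 7.86 CPM in libraries labelled Gata2, against 11.9, 14.5 and 11.1 CPM in WT, and the groups overlapped. Where an allele leaves part of the transcript in place, gene counts do not check the label. The 6 LSK markers summed to 1173 to 2137 CPM in the LSK libraries, against 58.0 to 165 CPM at Week2.

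Between Day0 and Day2 most of the AP-1 genes fell in LSK cells, in libraries labelled Gata2 and in those labelled WT. In each genotype 6 of 10 members fell (Fos, Fosb, Fosl2, Jun, Junb and Jund), 1 rose (Fosl1) and 3 were not called (Atf3, Batf and Maff), at an adjusted p under 0.05 in edgeR's quasi-likelihood test. Of all 19162 genes tested, 4.82% were called lower and 4.48% higher in libraries labelled Gata2, against 17.9% lower and 11.9% higher in WT. These all-gene shares depend on single libraries. In WT 5720 genes were called, against 12386 without Day0_WT replicate 2, 3191 without Day2_WT replicate 2 and 3338 without Day2_WT replicate 3. In libraries labelled Gata2 1782 were called, against 4863 and 4606 without Day0_WT replicate 1 or 2. The count was 862, 698 and 783 without Day0_Gata2 replicate 1, 2 or 3, and 499 and 804 without Day2_Gata2 replicate 1 or 2. The number of members called stayed between 6 and 8 in Gata2-labelled libraries and between 7 and 8 in WT when any one library was left out.

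**Figure D1:**
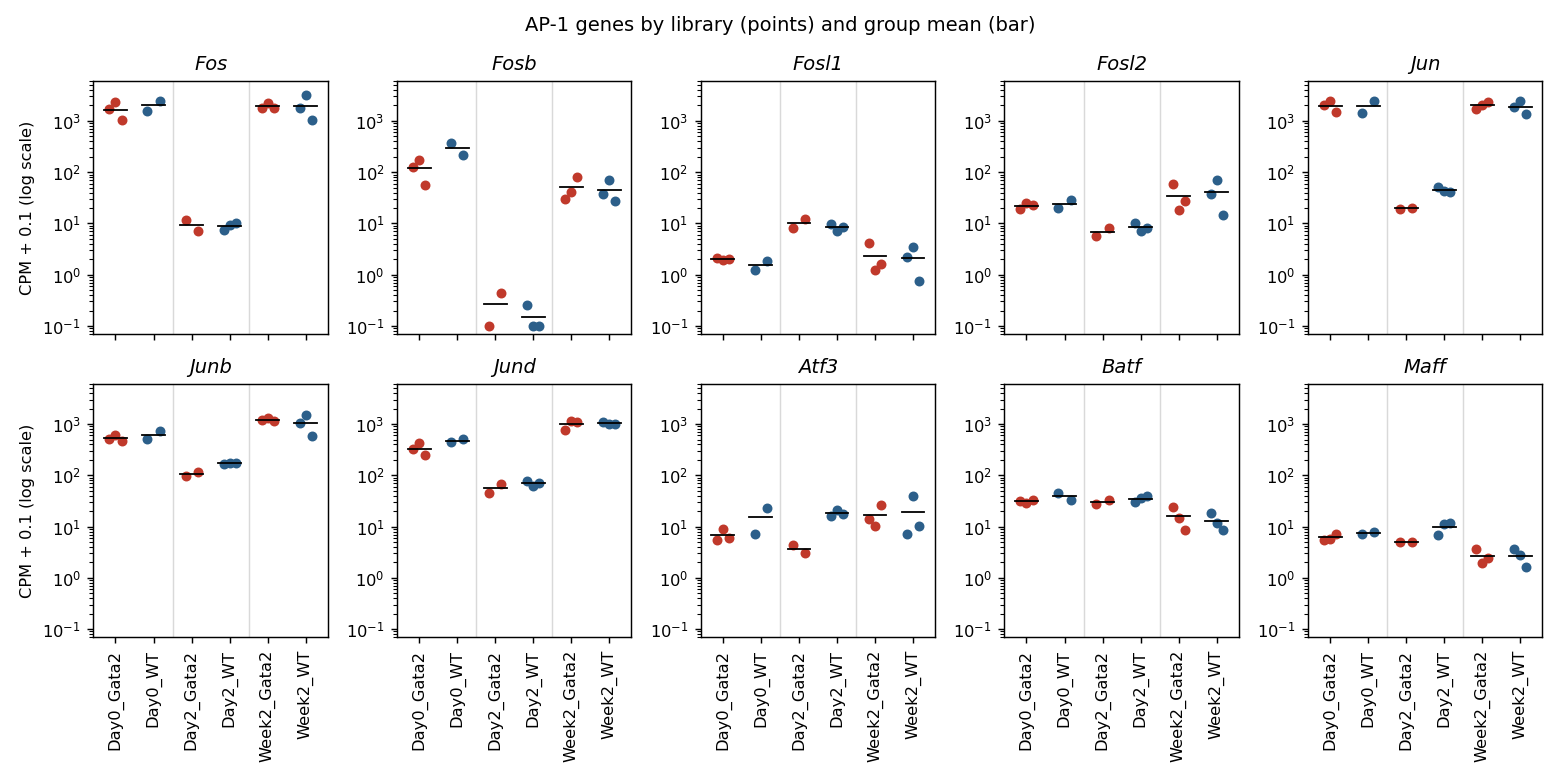
Level of each AP-1 gene in each library (CPM plus 0.1, log scale) by group, with libraries labelled Gata2 in red and WT in blue and bars at the group means. Fos, Fosb, Jun, Junb and Jund sit lower in all 5 Day2 libraries than in all 5 Day0 libraries, and Fosl1 sits higher.

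Among the Fos proteins, Fos itself, the founding member, fell the most of those with reads in every library. Fos had 11.7 and 6.88 CPM in Day2 libraries labelled Gata2, against 1686, 2289.5 and 1022.5 CPM at Day0. In WT it had 7.41, 9.40 and 9.94 CPM at Day2, against 1582 and 2465 CPM at Day0. The lowest Day0 library thus lay far above the highest Day2 library in both genotypes. The log2 fold changes were -7.48 (SE 0.493, edgeR adjusted p = 8.09e-05) in libraries labelled Gata2 and -7.83 (SE 0.422, adjusted p = 2.17e-05) in WT.

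Fosb, a Fos protein known for a long-lived splice form in neurons, was close to the detection floor at Day2. It had 0 and 17 counts in Day2 libraries labelled Gata2, against 6448, 8561 and 3915 counts at Day0. In WT it had 8, 0 and 0 counts at Day2, against 7619 and 11222 counts at Day0. A count of 0 allows up to 3 counts, which is 0.0593 CPM in the first of these libraries and 0.0607 and 0.0599 CPM in both WT libraries without a count, for counting error only. Day0 levels were 129, 170 and 55.1 CPM in libraries labelled Gata2, against 368 and 219.9 CPM in WT. Fosb was called lower in both genotypes (edgeR adjusted p = 0.00113 in libraries labelled Gata2 and 0.000152 in WT), and its fitted log2 fold changes of -9.44 (SE 1.09) and -12.39 (SE 1.05) rest on those few reads and are no bounds.

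Fosl1 and Fosl2 encode the Fos-related antigens, which lack the activation domain of Fos. Fosl1 had 7.90 and 11.9 CPM in Day2 libraries labelled Gata2, against 2.02, 1.87 and 1.90 CPM at Day0. WT libraries had 9.56, 7.17 and 8.27 CPM of Fosl1 at Day2, against 1.16 and 1.74 CPM at Day0. It is the member that rose, by a log2 fold change of 2.36 (SE 0.357, edgeR adjusted p = 0.00414) in libraries labelled Gata2 and 2.51 (SE 0.399, adjusted p = 0.00259) in WT. Reads of the overlapping gene Ccdc85b may be among those counted for Fosl1, and their part in this rise was not tested. Fosl2 had 5.59 and 7.87 CPM in Day2 libraries labelled Gata2, against 18.8, 25.1 and 22.4 CPM at Day0. Its WT levels were 10.2, 7.07 and 7.91 CPM at Day2, against 19.8 and 28.4 CPM at Day0. The times did not overlap, and the log2 fold changes were -1.72 (SE 0.31, edgeR adjusted p = 0.00922) in libraries labelled Gata2 and -1.52 (SE 0.288, adjusted p = 0.00565) in WT. Both WT calls were lost when only the Day2 and Day0 WT libraries entered the fit (adjusted p = 0.0536 for Fosl1 and 0.0568 for Fosl2). The Fosl2 call in libraries labelled Gata2 was lost without Day2_Gata2 replicate 1 (adjusted p = 0.115).

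Among the Jun proteins, Jun, the founding Jun protein and the substrate that named the JNK kinases, fell the most. It had 19.4 and 20.2 CPM in Day2 libraries labelled Gata2, against 2058, 2418 and 1485 CPM at Day0. Its WT levels were 51.5, 42.3 and 41.8 CPM at Day2, against 1434 and 2456 CPM at Day0. The log2 fold changes were -6.65 (SE 0.346, edgeR adjusted p = 3.6e-05) in libraries labelled Gata2 and -5.43 (SE 0.278, adjusted p = 1.74e-05) in WT.

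Junb and Jund fell less steeply than Jun and kept levels of 44.8 CPM or more at Day2. Junb had 95.8 and 114 CPM in Day2 libraries labelled Gata2, against 507, 620.24 and 474 CPM at Day0. In WT it had 169, 175 and 171 CPM at Day2, against 511 and 737 CPM at Day0. The log2 fold changes were -2.35 (SE 0.196, edgeR adjusted p = 0.000224) in libraries labelled Gata2 and -1.86 (SE 0.177, adjusted p = 0.000278) in WT. Jund, the Jun gene that many resting cells express steadily, had 44.8 and 66.4 CPM in Day2 libraries labelled Gata2, against 327, 421 and 252 CPM at Day0. WT libraries had Jund at 76.3, 62.6 and 70.03 CPM at Day2, against 442 and 513 CPM at Day0. The log2 fold changes were -2.58 (SE 0.257, edgeR adjusted p = 0.000543) in libraries labelled Gata2 and -2.78 (SE 0.233, adjusted p = 0.000152) in WT. That the falls of Jun and Jund differ in size was not tested.

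Atf3, Batf and Maff were not called. Batf, a partner of Jun and IRF proteins in lymphoid and dendritic cells, had 26.9 and 33.0 CPM in Day2 libraries labelled Gata2, against 31.6, 29.4 and 32.2 CPM at Day0. In WT it had 29.6, 35.4 and 38.8 CPM at Day2, against 45.8 and 33.4 CPM at Day0, so the times overlapped in both genotypes. Atf3 and Maff lay below their Day0 levels in both Day2 libraries labelled Gata2, as 34.4% of all genes did. Their log2 fold changes were -0.94 (SE 0.485, edgeR adjusted p = 0.266) and -0.30 (SE 0.341, adjusted p = 0.666). Without Day0_WT replicate 1 or 2, Atf3 passed there (adjusted p = 0.0322 and 0.0211). In WT both genes overlapped between the times, and their values are given with the genotype comparison.

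**Figure D2:**
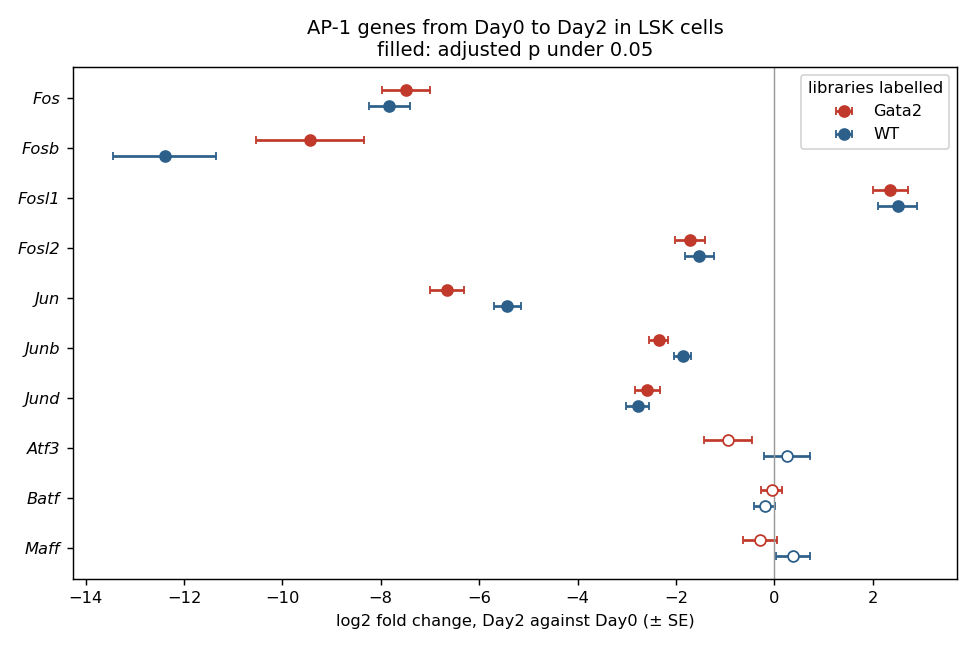
Fitted log2 fold change of each AP-1 gene, Day2 against Day0, with its SE, in libraries labelled Gata2 (red, upper) and WT (blue, lower). Filled points passed at an adjusted p under 0.05: 6 members lie left of 0 and Fosl1 right of it in both genotypes, and the Fosb points rest on 17 and 8 reads at Day2.

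The make-up of the summed transcript level differed between the times. Per kilobase of exon, the 10 members together had 120 ± 17.7 CPM per kb in Day2 libraries labelled Gata2 (SD, n = 2), against 1810 ± 507 at Day0 (n = 3). In WT they had 176 ± 2.3 CPM per kb at Day2 (n = 3), against 2120 ± 575 at Day0 (n = 2). Fos made up 3.44% ± 1.73 of that sum in Day2 libraries labelled Gata2 and 38.3% ± 4.39 at Day0, and in WT 2.15% ± 0.307 at Day2 and 40.4% ± 1.55 at Day0. Jun made up 5.24% ± 0.636 in Day2 libraries labelled Gata2 and 34.7% ± 1.63 at Day0, and in WT 8.04% ± 1.02 at Day2 and 28.4% ± 2.99 at Day0. Junb took the largest mean share at Day2, 38.2% in libraries labelled Gata2 (37.5% and 38.9%) and 42.4% in WT (41.6% to 43.7%), followed by Jund with 27.6% ± 3.56 and 23.7% ± 2.33. Batf, whose levels overlapped between the times, made up 17.8% ± 0.0651 in Day2 libraries labelled Gata2 and 1.30% ± 0.436 at Day0. In WT Batf made up 14.0% ± 1.75 at Day2 and 1.42% ± 0.683 at Day0. The largest shares were thus those of Fos and Jun at Day0 and of Junb and Jund at Day2. With the length of the longest coding transcript in place of all exons, Batf made up 21.8% in Day2 libraries labelled Gata2 and 17.1% in WT.

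**Figure D3:**
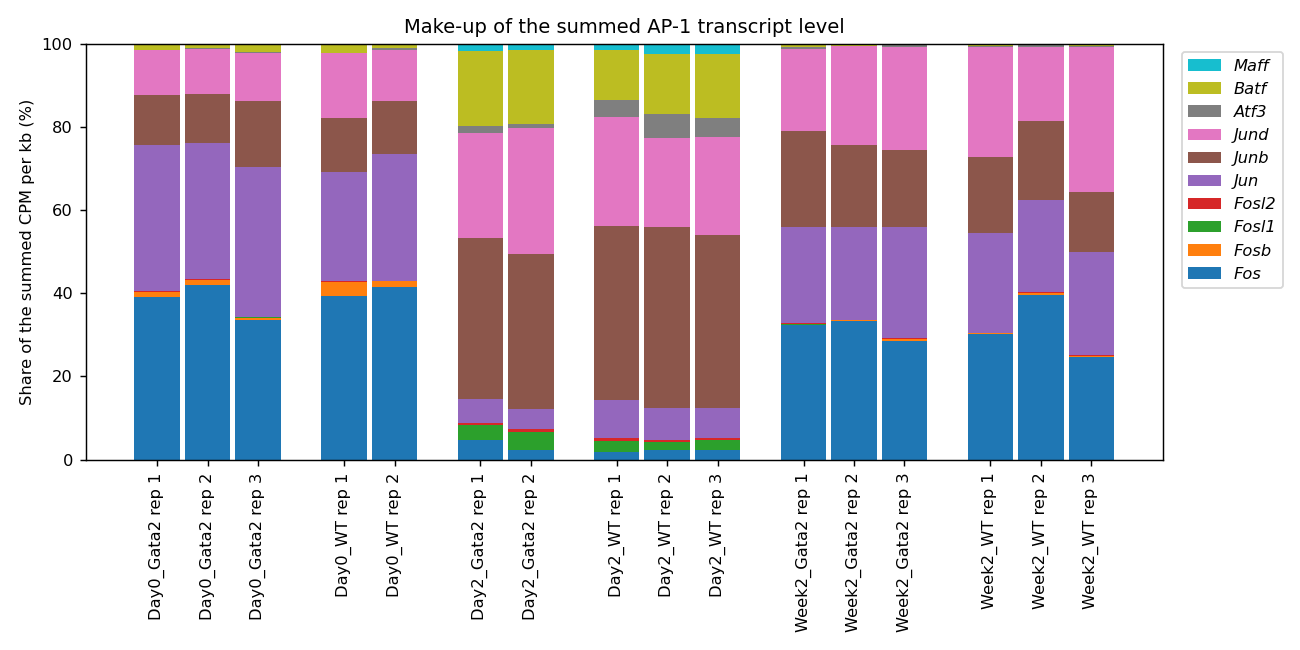
Share of each AP-1 gene in the summed CPM per kb of the 10 genes, 1 bar per library, with libraries labelled Gata2 left of WT at each time. Fos and Jun fill most of the Day0 bars, Junb, Jund and Batf most of the Day2 bars, and Fos, Jun, Junb and Jund nearly all of the Week2 bars.

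The pathway around AP-1 moved in part with it. Of 15 other immediate early genes, 12 fell and 0 rose in libraries labelled Gata2 (median log2 fold change -2.47, against -0.07 over all genes). In WT 10 fell and 0 rose (median -2.62, against -0.11 over all genes). Zfp36, whose product degrades AU-rich mRNAs, had 46.8 and 56.4 CPM in Day2 libraries labelled Gata2, against 865, 1151.5 and 761 CPM at Day0. Its log2 fold change was -4.17 there (SE 0.261, edgeR adjusted p = 6.36e-05) and -4.11 in WT (SE 0.227, adjusted p = 2.41e-05). Btg2, an antiproliferative gene, had log2 fold changes of -2.22 (SE 0.187) in libraries labelled Gata2 and -2.19 (SE 0.171) in WT. Egr1, which serum response factor controls, had 95.4 and 113 CPM in Day2 libraries labelled Gata2, against 511, 956 and 447 CPM at Day0, values chosen after they were seen.

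The MAP kinase phosphatases, which switch off the kinases that drive AP-1, split. Of 8, 2 fell and 1 rose in libraries labelled Gata2, and 4 fell and 1 rose in WT. Dusp1 had 10.7 and 11.4 CPM in Day2 libraries labelled Gata2, against 775, 960.11 and 525 CPM at Day0. Its log2 fold change was -6.09 there (SE 0.314, edgeR adjusted p = 3.6e-05) and -5.92 in WT (SE 0.265, adjusted p = 7.6e-06). Dusp4, the phosphatase that rose in libraries labelled Gata2, had 17.7 and 11.6 CPM at Day2, against 3.15, 4.48 and 2.51 CPM at Day0. Of 15 upstream kinases and serum response factors tested, 0 fell and 1 rose in libraries labelled Gata2, and 3 fell and 6 rose in WT. Of all genes, 4.82% fell and 4.48% rose in libraries labelled Gata2, and 17.9% fell and 11.9% rose in WT. Map2k4, a kinase that activates JNK, rose in both (log2 fold change 0.69, SE 0.133, and 0.96, SE 0.138). Among the other basic leucine zipper partners, Atf2 and Jdp2 rose in WT (log2 fold change 0.67, SE 0.153, and 0.91, SE 0.231). Of 11 AP-1 target genes tested, only Vegfa, the vascular growth factor, was called, and it rose in both (log2 fold change 1.62, SE 0.399, and 2.98, SE 0.459).

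The genes whose levels followed Fos, Jun and Junb most closely over the 10 LSK libraries were sought among 10574 genes of 5 CPM or more on average. The measure was the root mean square difference in centred log2 CPM. It is not scaled to the size of a gene's change, so distances cannot be compared between Fos, Jun and Junb. Nearest to Junb were Ppp1r15a (0.111), a stress-induced phosphatase subunit, Ddah2 (0.18) and Tsc22d3 (0.211), a glucocorticoid-induced gene. Jun was followed by Dusp1 (0.298), the heat shock gene Hspa1b (0.53) and Mroh6 (0.636). The genes nearest to Fos were Pnck (0.585), Igkv6-23 (0.586) and Dmp1 (0.717). Igkv6-23 and Dmp1 had 0 CPM in all 5 Day2 libraries, so their distances depend on the prior count. Ppp1r15a had 55.2 and 52.5 CPM in Day2 libraries labelled Gata2, against 235, 296 and 239 CPM at Day0.

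Markers of other cells moved over the same interval. All 4 megakaryocyte markers rose in both genotypes, summing to 1428 to 1477 CPM in Day2 libraries labelled Gata2 and 259 to 319 CPM at Day0, and in WT to 1603 to 1977 CPM at Day2 and 209.9 to 334 CPM at Day0. Neutrophil markers summed to 598 to 928 CPM in Day2 libraries labelled Gata2 and 150.5 to 267 CPM at Day0, with 1 of 6 called higher. In WT they summed to 865 to 1712 CPM at Day2 and 75.8 to 168 CPM at Day0, with 5 of 6 called higher. Of the LSK markers, 3 of 6 fell in each genotype. The summed level of 4 other marker lists was lower in every Day2 library than in every Day0 library of its genotype. Nkg7 made up most of the T and NK cell sum and Pdgfrb most of the stroma and endothelium sum in each LSK library. Cd79b made up most of the B cell sum in each Day2 library. The erythroid marker Hbb-bt was not called and went the other way. It had 9.38 and 7.99 CPM in Day2 libraries labelled Gata2, against 2.85, 5.08 and 3.17 CPM at Day0. In WT it had 16.2, 19.3 and 24.5 CPM at Day2, against 0.484 and 6.98 CPM at Day0. Of 5 erythroid markers, 2 fell in libraries labelled Gata2 (summed 21.6 to 24.7 CPM at Day2 and 41.9 to 66.9 CPM at Day0) and 3 in WT (35.2 to 42.9 CPM and 51.5 to 76.3 CPM). Of 4 stroma and endothelium markers, 1 fell in libraries labelled Gata2 (36.3 to 49.95 CPM at Day2 and 77.4 to 119 CPM at Day0) and 2 in WT (33.5 to 51.8 CPM and 61.6 to 124 CPM). Of 4 B cell markers, 0 fell in libraries labelled Gata2 (19.3 to 28.2 CPM at Day2 and 56.03 to 78.1 CPM at Day0) and 2 in WT (18.4 to 30.3 CPM and 52.3 to 91.2 CPM). Of 4 T and NK cell markers, 4 fell in libraries labelled Gata2 (126 to 150.1 CPM at Day2 and 187 to 274 CPM at Day0) and 1 in WT (105 to 142 CPM and 148 to 187 CPM), and the T cell gene Cd3e had 0 CPM in all 5 Day2 libraries. Of 6 monocyte and macrophage markers, 1 rose in libraries labelled Gata2 and 2 in WT. In bulk RNA fewer cells of a type and less RNA per cell cannot be told apart, and the part of these cell markers in the AP-1 changes was not tested. The Day2 libraries held 19266 to 21944 genes with a count and the Day0 libraries 22150 to 30564. The labels name a stranded mRNA kit and a low-input kit without saying which library had which, so a change of kit and the change of time cannot be told apart. All 5 Day2 libraries expressed the male gene Ddx3y above 10 CPM, against 3 of 5 at Day0, and with sex as a term the count of members called was 7 in each genotype.

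At Day2 the AP-1 genes of lowest p between the genotypes were Jun, Junb, Atf3 and Maff, all lower in libraries labelled Gata2, and 0 of 10 members were called. The fitted fold change of Fosb was uncalled and rests on 17 and 8 reads. EdgeR made 0 calls (0%) among all 19162 genes too, 1070 of which (5.58%) had p under 0.05 before adjustment, while DESeq2 called 168, and edgeR called 48 and 32 without Day0_WT replicate 1 or 2. Of the members, 4 of 10 had an unadjusted p under 0.05, and the same 4 of 10 had all libraries labelled Gata2 below all WT libraries, as 11.1% of all genes did. The median log2 fold change of the members was -0.32, against -0.000978 over all genes.

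Atf3, which represses stress-induced genes, had 4.19 and 2.90 CPM in Day2 libraries labelled Gata2, against 15.7, 21.3 and 17.6 CPM in WT. The log2 fold change was -2.36 (SE 0.516, edgeR adjusted p = 0.42). DESeq2 called it (-2.34, adjusted p = 0.000378). With Day0_WT replicate 1 or 2 left out, which belong to neither group compared but share the fit, edgeR called it as well (-2.35, adjusted p = 0.0174, and -2.32, adjusted p = 0.0199). Over 16 alternatives its adjusted p ranged between 0.000378 and 1.

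Jun had 19.4 and 20.2 CPM in Day2 libraries labelled Gata2, against 51.5, 42.3 and 41.8 CPM in WT, a log2 fold change of -1.19 (SE 0.263, edgeR adjusted p = 0.42). DESeq2 called it too (-1.18, adjusted p = 0.0135), and over 16 alternatives its adjusted p ranged between 0.0135 and 1. Junb had 95.8 and 114 CPM in libraries labelled Gata2, against 169, 175 and 171 CPM in WT, a log2 fold change of -0.71 (SE 0.182, edgeR adjusted p = 0.629). Maff had 4.90 and 4.99 CPM in libraries labelled Gata2, against 6.64, 11.2 and 11.5 CPM in WT, a log2 fold change of -0.98 (SE 0.349, edgeR adjusted p = 0.822). In each of these genes the groups did not overlap, with 2 libraries against 3.

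**Figure D4:**
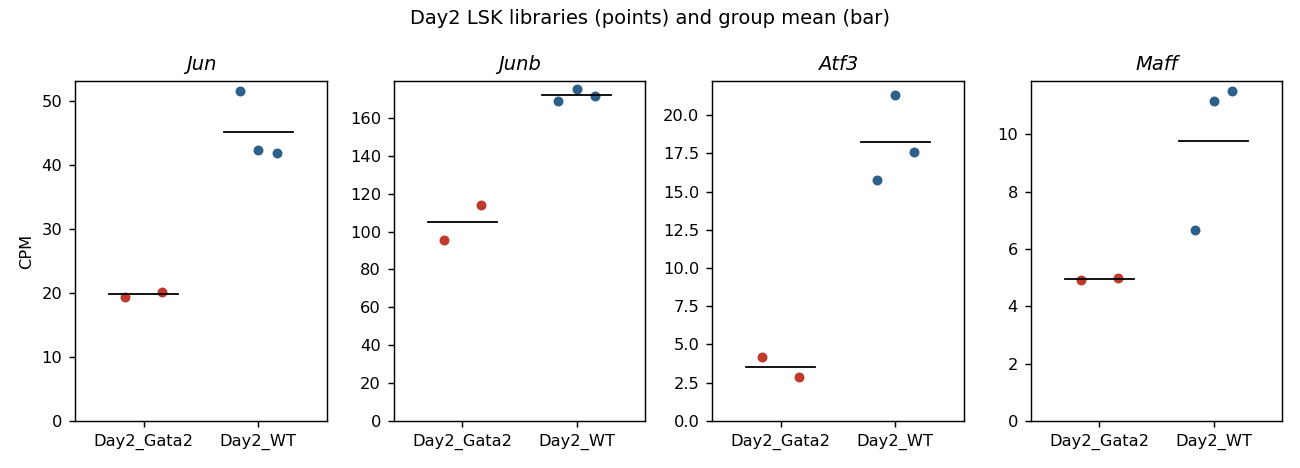
Levels (CPM, axis from 0) of Jun, Junb, Atf3 and Maff in the 2 Day2 libraries labelled Gata2 (red, left) and the 3 WT libraries (blue, right), with bars at the means. Each gene's red points lie below its blue points, with Atf3 at 4.19 and 2.90 CPM against 15.7 to 21.3 CPM, and 0 of the 4 passed in edgeR.

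The other 6 members overlapped between the genotypes at Day2, Fos with 11.7 and 6.88 CPM in libraries labelled Gata2 lying on both sides of its WT range of 7.41 to 9.94 CPM. Among other immediate early genes, 13 of 15 were lower in libraries labelled Gata2 and 0 were called. Their median log2 fold change was -0.478, against -0.000978 over all genes, and whether they move independently of each other was not tested. Ier3, a survival gene, had the lowest p of that list, with 32.6 and 28.0 CPM in libraries labelled Gata2, against 80.8, 84.9 and 89.7 CPM in WT (log2 fold change -1.49, SE 0.155, edgeR adjusted p = 0.0572). In the lists of phosphatases, kinases, partners and target genes 0 were called as well. The 4 megakaryocyte markers, of which 0 were called, summed to 1428 to 1477 CPM in libraries labelled Gata2 and 1603 to 1977 CPM in WT. The 6 neutrophil markers, of which 0 were called, summed to 598 to 928 CPM in libraries labelled Gata2 and 865 to 1712 CPM in WT. The 5 erythroid markers, of which 0 were called, summed to 21.6 to 24.7 CPM in libraries labelled Gata2 and 35.2 to 42.9 CPM in WT. The part of these cells in the lower levels of Jun and Atf3 was not tested.

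At Day0 0 of 10 members were called between the genotypes by edgeR, and 0 by DESeq2. EdgeR made 0 calls (0%) among all genes, 2586 of which (13.5%) had p under 0.05 before adjustment, and DESeq2 called 441. Without Day0_WT replicate 2 edgeR called 8655 genes and 0 members, with the lone library of that group assumed to vary like the other groups. Of the members, 2 of 10 had an unadjusted p under 0.05. All libraries labelled Gata2 lay below WT in 4 of 10 members, as in 14.2% of all genes, and above WT in 1 of 10, as in 18.3% of all genes.

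The 4 lower members were Fosb, Jund, Batf and Maff. Fosb had 129, 170 and 55.1 CPM in Day0 libraries labelled Gata2, against 368 and 219.9 CPM in WT (log2 fold change -1.32, SE 0.635, edgeR adjusted p = 0.387). Jund had 327, 421 and 252 CPM in libraries labelled Gata2, against 442 and 513 CPM in WT (-0.52, SE 0.229, adjusted p = 0.367). Batf had a log2 fold change of -0.35 (SE 0.207, edgeR adjusted p = 0.455), and Maff, with 5.37, 5.73 and 7.10 CPM against 7.21 and 7.86 CPM in WT, one of -0.31 (SE 0.337, adjusted p = 0.67). Fosl1 was the higher one, with 0.40 (SE 0.369, edgeR adjusted p = 0.616).

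Atf3 at Day0 rested on a single library. It had 5.45, 8.98 and 5.97 CPM in libraries labelled Gata2, against 7.16 and 23.3 CPM in WT, and the groups overlapped. Its log2 fold change of -1.17 (SE 0.463, edgeR adjusted p = 0.348) became 0.12 without Day0_WT replicate 2. Fos (1686, 2289.5 and 1022.5 CPM against 1582 and 2465 CPM in WT) and Jun (2058, 2418 and 1485 CPM against 1434 and 2456 CPM in WT) overlapped.

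Whether the genotypes differed in the change over time was tested as the difference between their effects at Day2 and Day0. EdgeR called 0 of 10 members and 0 of all genes (0%), with 1 of 10 members and 1984 genes (10.4%) at an unadjusted p under 0.05, and DESeq2 called 247 genes and 0 members. That member was Jun, with a difference of -1.22 on the log2 scale (SE 0.362, edgeR adjusted p = 0.465). Without Day0_WT replicate 2, the Day0 WT group holds only Day0_WT replicate 1, the LSK library of fewest counts (19618830). The differences were then -1.81 for Jun, -0.92 for Junb and -2.44 for Atf3. The steeper fall of Jun in libraries labelled Gata2 thus did not pass with all libraries in the fit.

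At Week2 the levels of the AP-1 genes in CD45.2 marrow cells overlapped between the genotypes. EdgeR called 0 of 10 members and 0 of 36485 genes (0%), with 0 of 10 members and 87 genes (0.238%) at an unadjusted p under 0.05, and DESeq2 called 1 gene and 0 members. Without Week2_Gata2 replicate 3 edgeR called 4 genes. The groups overlapped in 10 of 10 members, against 0.737% of all genes wholly lower and 0.674% wholly higher in libraries labelled Gata2.

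Fos had 1748, 2249 and 1820.3 CPM in Week2 libraries labelled Gata2, against 1763, 3189 and 1019 CPM in WT. Jun had 1691.5, 2037 and 2319 CPM in libraries labelled Gata2, against 1900.4, 2431 and 1390.4 CPM in WT. The WT libraries spread wider than the libraries labelled Gata2 in both genes. Junb had 1227, 1294 and 1149 CPM in libraries labelled Gata2, against 1045, 1501 and 587 CPM in WT. Jund had 764, 1137 and 1119.6 CPM in libraries labelled Gata2, against 1104, 1005 and 1019 CPM in WT. Together these 4 genes made up most of the AP-1 sum, Fos with 31.4% ± 2.51 in libraries labelled Gata2 and 31.5% ± 7.55 in WT (SD, n = 3 each).

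Fosb had 30.2, 41.8 and 79.0 CPM in Week2 libraries labelled Gata2, against 37.95, 71.4 and 26.7 CPM in WT. Atf3 had 13.8, 10.1 and 26.3 CPM in libraries labelled Gata2, against 7.02, 39.1 and 10.3 CPM in WT. Fosb, Atf3 and also Jun were highest in the same library of each group, Week2_Gata2 replicate 3 and Week2_WT replicate 2. These libraries also stood apart in their erythroid markers, 5 genes that summed to 9.39 and 11.5 CPM there, against 393 and 1103 CPM in the other libraries labelled Gata2 and 1490 and 3455 CPM in the other WT libraries. The part of erythroid cells in the Fosb, Atf3 and Jun levels was not tested. Fosl2 ranged between 18.2 and 57.8 CPM in libraries labelled Gata2 and between 14.8 and 69.2 CPM in WT, Batf between 8.35 and 24.5 CPM and between 8.36 and 18.4 CPM. Fosl1 lay at 3.99 CPM or below in libraries labelled Gata2 and at 3.34 CPM or below in WT, and Maff at 3.52 and 3.495 CPM or below.

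**Figure D5:**
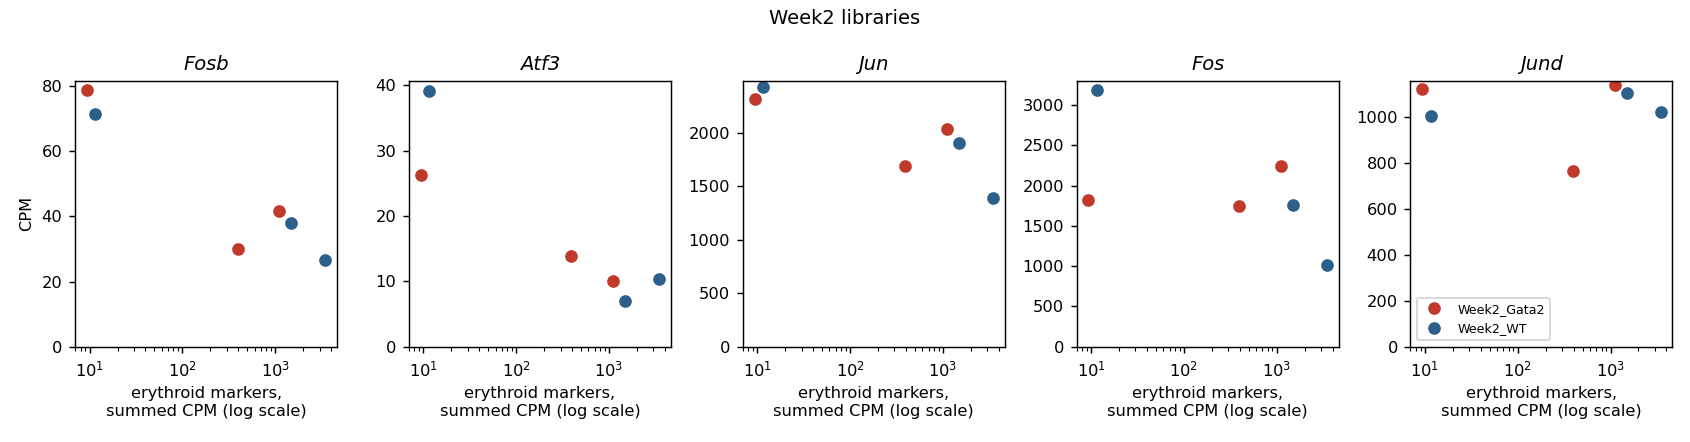
Level of Fosb, Atf3, Jun, Fos and Jund (CPM, axis from 0) against the summed CPM of 5 erythroid markers (log scale) in the 6 Week2 libraries, red for those labelled Gata2 and blue for WT. The points at 9.39 and 11.5 CPM of erythroid markers hold the highest Fosb, Atf3 and Jun levels of their groups, which is not so for Fos and Jund in the libraries labelled Gata2 or for Jund in WT.

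Week2 marrow cells were set beside Day0 LSK cells in a fit of all 16 libraries. Cell population, time, transplantation and depth all differ and cannot be told apart, and the median of all 31164 genes was shifted by 1.22 (log2) in libraries labelled Gata2 and 0.95 in WT. In libraries labelled Gata2 2 of 10 members were called higher, as were 32.6% of all genes, and 2 of 10 lower, as were 10.4%. In WT 2 of 10 were called higher, as were 21.9% of all genes, and 3 of 10 lower, as were 11.6%. These all-gene counts also moved with single libraries. In libraries labelled Gata2 13396 genes were called, against 6289, 6872 and 5420 without Day0_Gata2 replicate 1, 2 or 3 and 7553 without Week2_Gata2 replicate 3. In WT 10427 were called, against 4483 without Day0_WT replicate 1, 6013 without Week2_WT replicate 2 and 6307 without Week2_WT replicate 3.

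Batf and Maff were lower in both genotypes. Batf had log2 fold changes of -1.03 (SE 0.278, edgeR adjusted p = 0.0113) in libraries labelled Gata2 and -1.57 (SE 0.305, adjusted p = 0.0015) in WT, which are -2.25 and -2.52 relative to the median gene. Maff had -1.24 (SE 0.398, edgeR adjusted p = 0.0234) and -1.50 (SE 0.434, adjusted p = 0.0192), or -2.46 and -2.45 relative to the median. In libraries labelled Gata2 the Maff call was lost without Day0_Gata2 replicate 3 (adjusted p = 0.0934) or Week2_Gata2 replicate 2 (0.079), and the Batf call without both Week2 libraries low in erythroid markers (0.0593), an alternative chosen after seeing the data. In WT the Maff call was lost with only the compared libraries in the fit (0.17). Jund and Junb were called higher in both, Jund with 1.63 (SE 0.246, edgeR adjusted p = 0.000147) in libraries labelled Gata2 and 1.21 (SE 0.279, adjusted p = 0.00533) in WT. Relative to the median gene Jund lay at 0.41 and 0.26. Junb had 1.20 (SE 0.266, edgeR adjusted p = 0.00369) and 0.83 (SE 0.301, adjusted p = 0.0453), or -0.02 and -0.12 relative to the median, so its direction rests on the scaling. Over 23 alternatives the adjusted p of Junb in WT ranged between 0.0131 and 0.256.

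Fosb was called lower in WT alone (-2.59, SE 0.781, edgeR adjusted p = 0.0267), and the difference between the genotypes was not tested. Atf3 had 1.42 (SE 0.637, edgeR adjusted p = 0.0793) in libraries labelled Gata2, and DESeq2 called it (adjusted p = 0.0438). Fos and Jun overlapped between Day0 and Week2 in both genotypes. The count of members called in WT was 2 without Day0_WT replicate 1, when Fosb, Junb and Jund were lost (adjusted p = 0.104, 0.256 and 0.0646). It was 3 without Week2_WT replicate 3, when Fosb and Maff were lost (adjusted p = 0.0727 and 0.0645). Fosb was also lost without Week2_WT replicate 1 (adjusted p = 0.0674). Of 13 AP-1 target genes tested, 7 were called higher and 1 lower in libraries labelled Gata2, against 32.6% and 10.4% of all genes. In WT 5 were called higher and 1 lower, against 21.9% and 11.6% of all genes. The lower one in WT was Ccnd1 (-1.42, SE 0.31, edgeR adjusted p = 0.00361). Plaur, the urokinase receptor, was called higher in both genotypes (3.24, SE 0.516, and 3.26, SE 0.611). The 6 neutrophil markers of these cells summed to 17000 CPM or more in each Week2 library, against 267 CPM or less at Day0.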

How the data were processed

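RNA of 16 libraries was given as read counts per Ensembl gene ID, whole numbers deposited by the authors in a single table. The submitters' processing notes name Trimmomatic 0.38, STAR 2.5.2b and the mm10 build, without settings, and no source used here names the counting program or its strand setting. GENCODE M21 (GRCm38, the build of mm10) gave symbols to 45143 of 45706 IDs, and 0 rows named no gene.

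Tests used edgeR 4.0.16 in R 4.3.3, with TMM scaling, filterByExpr and robust quasi-likelihood fits. P-values were adjusted by Benjamini-Hochberg over every gene of a comparison, and called under 0.05. One fit held the 10 LSK libraries in 4 groups, one the 6 Week2 libraries, and one all 16 libraries for Week2 against Day0, giving 8 comparisons. Levels are CPM, divided for shares by the length of the merged exons. The procedure was tested on simulated data.

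The members and the 5 pathway lists were chosen with earlier results of these data known. Named genes were the members, Gata2, up to 3 called genes of lowest p per list and comparison (the gene of lowest p where none was called), and 3 genes of like pattern for Fos, Jun and Junb (prior count 2). One gene that this rule names is not reported here.

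Alternatives were RLE scaling, no low count filter, DESeq2 1.42.0, only the groups compared, each library left out, and the replicate number as a block. A sex term, leaving out both Week2 libraries low in erythroid markers, and transcript length were added after the data were seen. A chi-square test over genes found every replicate pair to differ beyond sampling noise (at least 28.4 per degree of freedom).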

Additional observations from a re-analysis of the deposited data

How the results depend on the processing

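The counts of members called kept within 1.5 times of their main values under RLE scaling, no low count filter, the sex term and leaving out both Week2 libraries low in erythroid markers. DESeq2 called 2 members at Day2 between the genotypes, where edgeR called 0. With only the libraries compared, Week2 against Day0 in WT gave 3 members in place of 5. Leaving out 1 library gave 0 to 1 members for the genotypes at Day2 and 2 to 5 for Week2 against Day0 in WT. For the difference of the genotype effects, members passed only without Day0_WT replicate 2. Many other genes passed there too, with a lone library left in the Day0 WT group. The other counts were 0 to 0 at Day0 and at Week2 between the genotypes, 7 to 8 for Day2 against Day0 in WT, 6 to 8 in libraries labelled Gata2, and 3 to 5 for Week2 against Day0 there. Among the fold changes printed, 1 reversed: Atf3 at Day0, 0.1177 without Day0_WT replicate 2, in a range of -1.778 to 0.1177; the cause was not tested. Of 661 alternatives for the 37 fold changes printed, 624 kept direction and side of the threshold, 25 lost the call and 11 gained it. The other 43 member fold changes, uncalled and not printed, changed sign in 115 of 708 alternatives and gained a call in 5. With the replicate block the counts of members called were 0, 0 and 0 between the genotypes at Day0, Day2 and Week2, 7 and 7 for Day2 against Day0, 0 for the difference, and 5 and 4 for Week2 against Day0 in WT and in libraries labelled Gata2. Deviations of same-numbered libraries from their group means correlated at -0.0954 to 0.073 in LSK cells and at 0.721, -0.517 and 0.572 at Week2. The labels give these libraries only a shared number, and what else they share was not tested. Groups of 2 or 3 libraries limit what the genotype comparisons can show.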
